A study of Mus musculus with 9 samples.

Results

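The 10 genes described here form the core of the circadian clock: the period genes Per1, Per2 and Per3, the cryptochromes Cry1 and Cry2, the repressor Ciart, the activators Arntl (also called Bmal1) and Clock, the nuclear receptor gene Nr1d1 and the output factor Dbp. They were taken by symbol from a table of 55335 gene symbols, each matched a single line, and all 10 were among the 21765 genes tested. Tissue was prelimbic cortex, part of the medial prefrontal cortex and engaged in pain control, from 9 mice on day 14 after surgery, with 1 mouse per library. Mice with spared nerve injury (SNI), a model of lasting neuropathic pain in which branches of the sciatic nerve are cut, were given R-HNK, a metabolite of ketamine, at 10 mg/kg (R-HNK mice, n = 3). Other mice with the same injury were given saline (injured saline mice, n = 3), and sham-operated mice were given saline (sham mice, n = 3). Strain, sex, age and the hour at which tissue was taken are not given in the sources used here. Without the hour, a difference in clock phase cannot be told apart from a difference between groups, for any gene below. All 3 groups had surgery and were given saline or R-HNK by a route and schedule not given in the sources used here, so an effect shared by all groups cannot be seen.

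The clock is a feedback loop of transcription. CLOCK and the protein of Arntl pair up and switch on genes that carry an E-box in their promoters, among them the Per and Cry genes, whose proteins return to the nucleus and block the pair, while the product of Nr1d1 represses Arntl. In neurons of the forebrain Per1, and to a lesser degree Per2, are also induced within the hour by neuronal firing through the transcription factor CREB, and Per1 by glucocorticoids as well. The question put to these libraries was whether the period genes that activity induces moved apart from the rest of the clock.

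The libraries held from 53624337 to 73586375 counts, and the lowest count of any clock gene in any library was 458, for Ciart. Levels are given in CPM, the count of a gene relative to the scaled library size. The excitatory cortical marker Slc17a7, a vesicular glutamate transporter, measured 1780 to 1881 CPM in R-HNK mice, 1992 to 2089 CPM in injured saline mice and 1477 to 1936 CPM in sham mice, so the injured saline libraries were highest. The 5 excitatory cortical markers read here were all positive in injured saline against sham mice (median log2 fold change 0.44), with Neurod6, a transcription factor of these neurons, called higher (0.70, edgeR adjusted p = 0.00901), and all negative in R-HNK against injured saline mice (median -0.28), with none called. All 10 markers of striatal medium spiny neurons on the list used here, which belong to a neighbouring region, were detected, and their summed level ran from 280 to 971 CPM in R-HNK mice, from 253 to 295 CPM in injured saline mice and from 291 to 1535 CPM in sham mice. The libraries with raised values were R-HNK replicates 1 and 3 and sham replicates 2 and 3. The Per1 calls below are therefore set beside their values without these 4 libraries, which leaves 1 R-HNK, 3 injured saline and 1 sham library, so that the spread comes from the injured saline mice alone. In bulk tissue fewer cells of a type and less RNA per cell cannot be told apart.

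Promoter sequences from RefSeq (GRCm38.p6) span 250 bases before to 50 bases after a start site. They were found for 9 of the 10 genes, 13 in all since some genes have several starts. Per2 had no entry, so its promoter was not searched. The promoter sequences of Per1, the gene whose level differed most between groups, are shown for both of its starts in the table. Beside them are those of Ciart, which holds the same E-box as Per1, and of Per3, which holds another clock element. Ciart and Per3 did not pass any comparison. Capitals mark the E-box CACGTG, the D-box TTATGTAA bound by DBP and its relatives, and TGACG, the core of the cAMP response element bound by CREB. All read 5′ to 3′ on the strand of the gene, and positions count bases from the start site, negative before it.
Per1, first start, chr11:69098699-69098998, plus strand: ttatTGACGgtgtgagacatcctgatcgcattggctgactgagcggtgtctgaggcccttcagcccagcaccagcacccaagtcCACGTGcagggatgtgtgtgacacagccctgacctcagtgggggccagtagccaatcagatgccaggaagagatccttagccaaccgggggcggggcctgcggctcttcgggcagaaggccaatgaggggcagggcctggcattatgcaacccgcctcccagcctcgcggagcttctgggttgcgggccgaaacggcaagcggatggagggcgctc
Per1, second start, chr11:69099902-69100201, plus strand: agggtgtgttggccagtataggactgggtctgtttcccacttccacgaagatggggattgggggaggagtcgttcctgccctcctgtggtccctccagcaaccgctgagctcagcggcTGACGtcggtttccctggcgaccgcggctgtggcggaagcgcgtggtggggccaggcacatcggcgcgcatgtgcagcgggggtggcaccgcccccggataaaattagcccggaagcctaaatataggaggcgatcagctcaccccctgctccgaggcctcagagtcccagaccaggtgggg
Per3, chr4:151044616-151044915, minus strand: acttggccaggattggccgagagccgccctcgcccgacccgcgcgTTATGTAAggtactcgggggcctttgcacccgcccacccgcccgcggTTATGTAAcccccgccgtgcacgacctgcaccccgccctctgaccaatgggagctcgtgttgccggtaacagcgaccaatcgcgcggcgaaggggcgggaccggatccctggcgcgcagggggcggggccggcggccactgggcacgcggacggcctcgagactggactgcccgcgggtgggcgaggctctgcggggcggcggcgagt
Ciart, chr3:95882179-95882478, minus strand: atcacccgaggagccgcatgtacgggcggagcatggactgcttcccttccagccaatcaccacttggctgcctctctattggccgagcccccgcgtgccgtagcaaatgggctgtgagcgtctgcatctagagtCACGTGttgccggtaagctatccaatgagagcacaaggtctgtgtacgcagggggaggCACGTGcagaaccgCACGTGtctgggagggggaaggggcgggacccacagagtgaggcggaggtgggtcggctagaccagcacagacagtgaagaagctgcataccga

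The first Per1 window held an E-box at -166 and TGACG at -246, near its far end, and the second held TGACG at -132. The Ciart window held 3 E-boxes, at -116, -58 and -44, and the Per3 window 2 D-boxes, at -205 and -158. Both strands were searched, and TGACG also lies within the full cAMP response element. Of 32851 RefSeq promoters of the same length, 7.15% held CACGTG, 0.938% held TTATGTAA and 20.8% held TGACG. The full cAMP response element TGACGTCA, in 1.79% of all promoters, was in none of the 13 windows. TGACG was found in those of Per1, Cry1 and Cry2. Cry1 and Cry2, whose windows are not shown, did not pass any comparison. CACGTT, an E-box variant in 4.68% of promoters, was present for Cry1, Cry2 and Nr1d1. The ROR response element, to which the product of Nr1d1 binds, was matched in 0.384% of promoters. Among the clock genes searched, which leave out Per2, it was only in the second window of Arntl, at position 27. These are matches of letters in short windows and show nothing of binding.

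Per kilobase of exon, which allows levels of different genes to be compared, the clock genes fell into an upper and a lower range. Nr1d1 (median 31.2, range 22.4 to 41.4 CPM per kilobase over the 9 libraries), Cry2 (25.9, 24.0 to 27.7), Dbp (23.0, 19.0 to 26.0) and Per1 (17.0, 13.0 to 27.2) were highest. Per2 (8.66, 7.23 to 11.0), Clock (7.02, 6.41 to 7.50), Per3 (5.90, 5.24 to 6.84), Cry1 (5.37, 4.73 to 6.37), Arntl (4.43, 3.89 to 4.80) and Ciart (4.19, 3.53 to 5.32) followed. Neighbours in this order overlapped in every case except Per1 and Per2. The place of Per1 in the order depended on the group: it measured 16.6 ± 1.45 CPM per kilobase in R-HNK mice, 25.8 ± 1.68 in injured saline mice and 13.8 ± 0.738 in sham mice (SD, n = 3 each). Dbp measured 23.5 ± 1.64, 21.6 ± 2.98 and 23.8 ± 2.17 CPM per kilobase in the same groups. Per1 was thus below every Dbp value in R-HNK and sham mice and overlapped Dbp in injured saline mice.

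**Figure D1:**
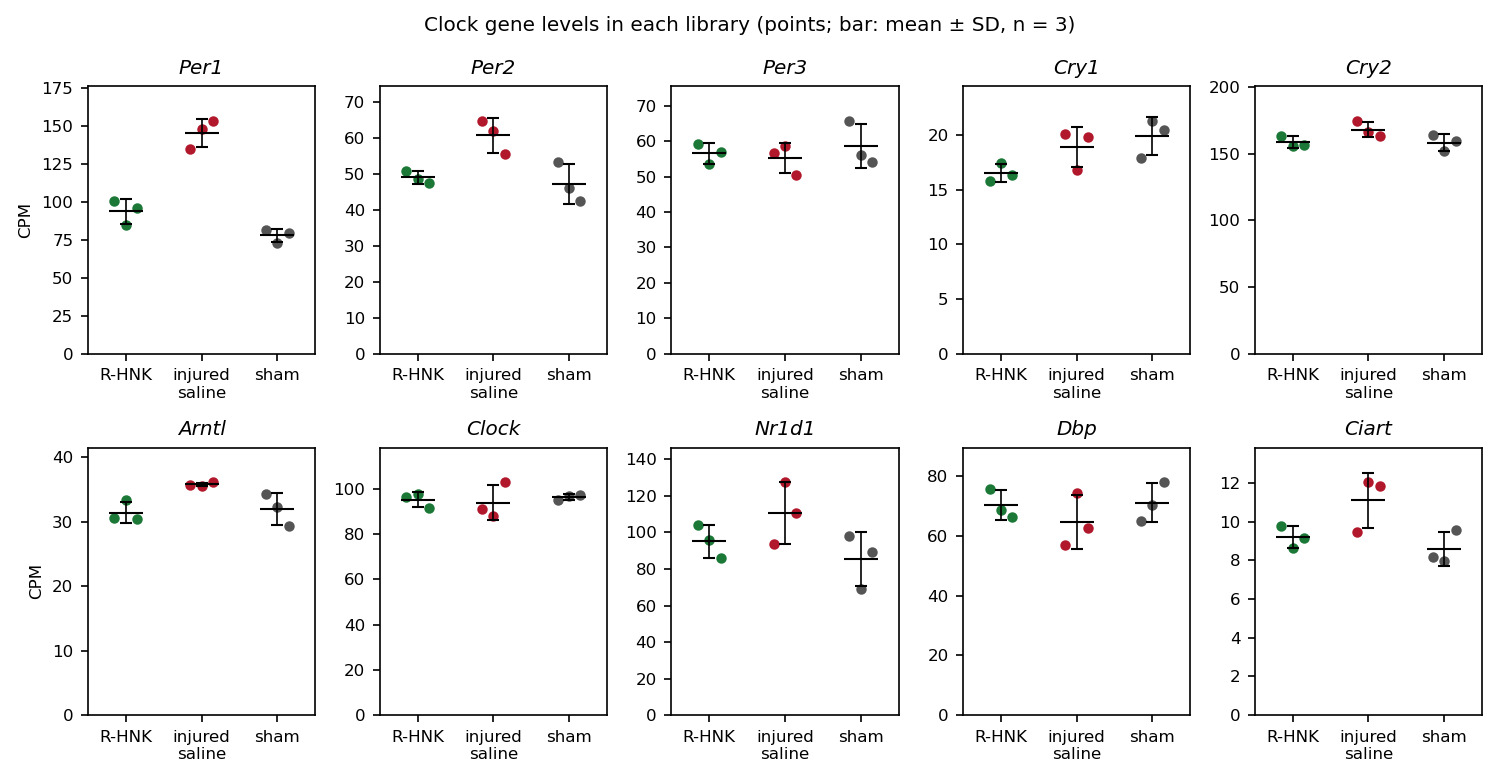
Level of each of the 10 clock genes in CPM (vertical axis, from 0) in R-HNK, injured saline and sham mice. Points are libraries in replicate order, the bar and whiskers are the mean ± SD (n = 3). The 3 Per1 values of injured saline mice, 135 to 153 CPM, lie above all 6 others, while Per3, Cry2, Clock and Dbp overlap between groups.

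Among the period genes Per1 stood out. Per1 (ENSMUSG00000020893, chromosome 11 from 69095217 to 69109960 on GRCm38), which encodes a repressor of the loop, measured 101, 84.6 and 95.7 CPM in R-HNK mice, 135, 148 and 153 CPM in injured saline mice and 81.0, 73.0 and 79.0 CPM in sham mice, here as below in the order of replicates 1, 2 and 3. The 3 groups did not overlap: injured saline mice were highest, R-HNK mice intermediate and sham mice lowest. Against sham mice, injured saline mice showed a 1.87-fold rise of Per1, or 0.90 ± 0.08 in log2 fold change (SE, edgeR quasi-likelihood test, Benjamini-Hochberg adjusted p = 0.000271). Against injured saline mice, Per1 fell in R-HNK mice, with a log2 fold change of -0.63 ± 0.08 (edgeR adjusted p = 0.00682). By p these were the 4th and the 9th of 21765 genes. R-HNK mice against sham mice gave a log2 fold change of 0.27 ± 0.08, which did not pass (edgeR adjusted p = 1.00, unadjusted p = 0.00522), although all 3 R-HNK values were above all 3 sham values.

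The first of these calls passed in all 18 other settings tried, with log2 fold changes from 0.85 to 0.97. Without the 4 libraries raised in striatal markers it was 0.85 (edgeR adjusted p = 0.00378), and with the striatal score as a covariate 0.92 (adjusted p = 0.00163). For R-HNK against injured saline mice the same settings gave -0.78 (adjusted p = 0.0117) and -0.65 (adjusted p = 0.0128). That call rests on 3 injured saline mice: without injured saline replicate 2 or 3 the adjusted p was 0.0667 or 0.0571, at log2 fold changes of -0.62 and -0.59. The excitatory cortical markers moved in the same directions as Per1 in both comparisons, by less (medians 0.44 and -0.28), and their part in the Per1 values was not tested. The R-HNK to sham value was 0.06 without the 4 libraries, where it compares R-HNK replicate 2 with sham replicate 1.

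Per2 (ENSMUSG00000055866, chromosome 1 from 91415982 to 91459324), the period gene whose loss most disturbs rhythms in mice, measured 50.7, 48.6 and 47.4 CPM in R-HNK mice, 64.6, 61.8 and 55.3 CPM in injured saline mice and 53.1, 45.9 and 42.3 CPM in sham mice. The injured saline libraries were again above all others, and R-HNK and sham mice overlapped. Injured saline against sham mice gave a log2 fold change of 0.36 ± 0.09, which missed the threshold (edgeR adjusted p = 0.0737; 95% interval for this gene alone 0.17 to 0.56). It passed in 4 of 18 other settings, namely without a filter on low counts (adjusted p = 0.0486), in DESeq2 (0.00939), in limma-voom (0.0197) and without sham replicate 1 (0.0080). The log2 fold change was 0.20 with those 4 libraries left out and 0.25 with the striatal covariate, and sham replicate 1, the sham library low in these markers, had the highest Per2 level of that group. R-HNK against injured saline mice gave -0.31 ± 0.09 (edgeR adjusted p = 0.406), and R-HNK against sham mice 0.05 ± 0.09 (adjusted p = 1.00).

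Per3 (ENSMUSG00000028957, chromosome 4 from 151003652 to 151044665), a period gene that the loop can run without, measured 59.2, 53.5 and 56.9 CPM in R-HNK mice, 56.6, 58.6 and 50.4 CPM in injured saline mice and 65.8, 56.1 and 54.2 CPM in sham mice. The groups overlapped throughout. The log2 fold change was -0.09 in injured saline against sham mice, with a 95% interval of -0.28 to 0.10 that lies below the Per1 interval of 0.73 to 1.08. It was 0.04 (-0.16 to 0.23) in R-HNK against injured saline mice, where the Per1 interval was -0.81 to -0.46.

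Of the other repressors, Cry1 and Cry2, which bind the activators directly, showed small differences. Cry1 (ENSMUSG00000020038, chromosome 10 from 85131700 to 85185064) measured 15.8, 17.4 and 16.4 CPM in R-HNK mice, 20.1, 16.8 and 19.9 CPM in injured saline mice and 17.9, 21.3 and 20.4 CPM in sham mice. All 3 R-HNK values were below all sham values, at a log2 fold change of -0.27 ± 0.10 that did not pass (edgeR adjusted p = 1.00, unadjusted p = 0.0236). It was -0.04 without the 4 libraries raised in striatal markers. Cry2 (ENSMUSG00000068742, chromosome 2 from 92403646 to 92434043) was the steadiest gene of the set, with 164, 156 and 157 CPM in R-HNK mice, 175, 167 and 163 CPM in injured saline mice and 164, 152 and 159 CPM in sham mice. Its within-group SD was 0.05 on the log2 scale, against a median of 0.21 over all tested genes, and its 95% intervals reached no further than 0.22 from 0 in any comparison.

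Ciart (ENSMUSG00000038550, chromosome 3 from 95878503 to 95882251), which encodes a repressor also known as CHRONO, measured 9.79, 8.64 and 9.15 CPM in R-HNK mice, 9.48, 12.0 and 11.8 CPM in injured saline mice and 8.17, 7.97 and 9.57 CPM in sham mice. Injured saline replicates 2 and 3 were the 2 highest libraries, and replicate 1 overlapped both other groups. The log2 fold changes were 0.38 ± 0.13 in injured saline against sham mice (edgeR adjusted p = 0.182) and -0.27 ± 0.13 in R-HNK against injured saline mice (adjusted p = 0.678). Neither passed in any of 18 other settings.

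The activators differed less than Per1. Arntl (ENSMUSG00000055116, chromosome 7 from 113207465 to 113314126) measured 30.5, 33.3 and 30.4 CPM in R-HNK mice, 35.8, 35.6 and 36.1 CPM in injured saline mice and 34.3, 32.2 and 29.3 CPM in sham mice. The injured saline values lay close together and above all 6 others. The log2 fold changes of 0.17 ± 0.08 in injured saline against sham mice (edgeR adjusted p = 0.32) and -0.19 ± 0.08 in R-HNK against injured saline mice (adjusted p = 0.628) did not pass, and the first was 0.07 without the 4 libraries raised in striatal markers and 0.06 with the striatal covariate. Clock (ENSMUSG00000029238, chromosome 5 from 76209868 to 76304792) measured 96.4, 97.9 and 91.8 CPM in R-HNK mice, 91.2, 88.0 and 103 CPM in injured saline mice and 95.2, 96.9 and 97.4 CPM in sham mice. Group membership accounted for 6.90% of the variance of Clock over the 9 libraries on the log2 scale, the lowest share of the 10 genes. The share was 95.3% for Per1, 72.9% for Per2, 63.9% for Arntl, 62.7% for Ciart and 57.1% for Cry1. It was 50.1% for Cry2, 43.6% for Nr1d1, 22.1% for Dbp and 12.0% for Per3. The same share over all tested genes was not worked out, so these values have no background beside them.

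Nr1d1 and Dbp, direct E-box targets with strong daily rhythms in many tissues, did not follow a common pattern. Nr1d1 (ENSMUSG00000020889, chromosome 11 from 98767932 to 98775333) measured 104, 96.0 and 85.8 CPM in R-HNK mice, 93.7, 127 and 110 CPM in injured saline mice and 98.1, 68.9 and 89.3 CPM in sham mice. It varied more within groups than any other clock gene here (within-group SD 0.21 on the log2 scale), and sham replicate 2 was the lowest library. Its log2 fold change of 0.37 ± 0.14 in injured saline against sham mice did not pass (edgeR adjusted p = 0.219), and was 0.18 without the 4 libraries raised in striatal markers. R-HNK against injured saline mice gave -0.22 ± 0.14 (adjusted p = 0.74).

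Dbp (ENSMUSG00000059824, chromosome 7 from 45705088 to 45710203), a PAR bZIP transcription factor, measured 75.9, 68.7 and 66.5 CPM in R-HNK mice, 56.8, 74.4 and 62.7 CPM in injured saline mice and 65.0, 70.4 and 78.0 CPM in sham mice. The groups overlapped, and its differences had the opposite sign to those of Per1: -0.14 ± 0.10 in injured saline against sham mice and 0.12 ± 0.10 in R-HNK against injured saline mice (edgeR adjusted p = 0.539 and 0.803). Dbp shares 18.0% of its exon bases with Sphk2 on the other strand, and Nr1d1 shares 8.55% with Thra. Overlaps with antisense genes covered 4.67% for Cry2 and 0.439% for Arntl. Since the counting is not stated to use strand, reads in these stretches cannot be told apart.

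**Figure D2:**
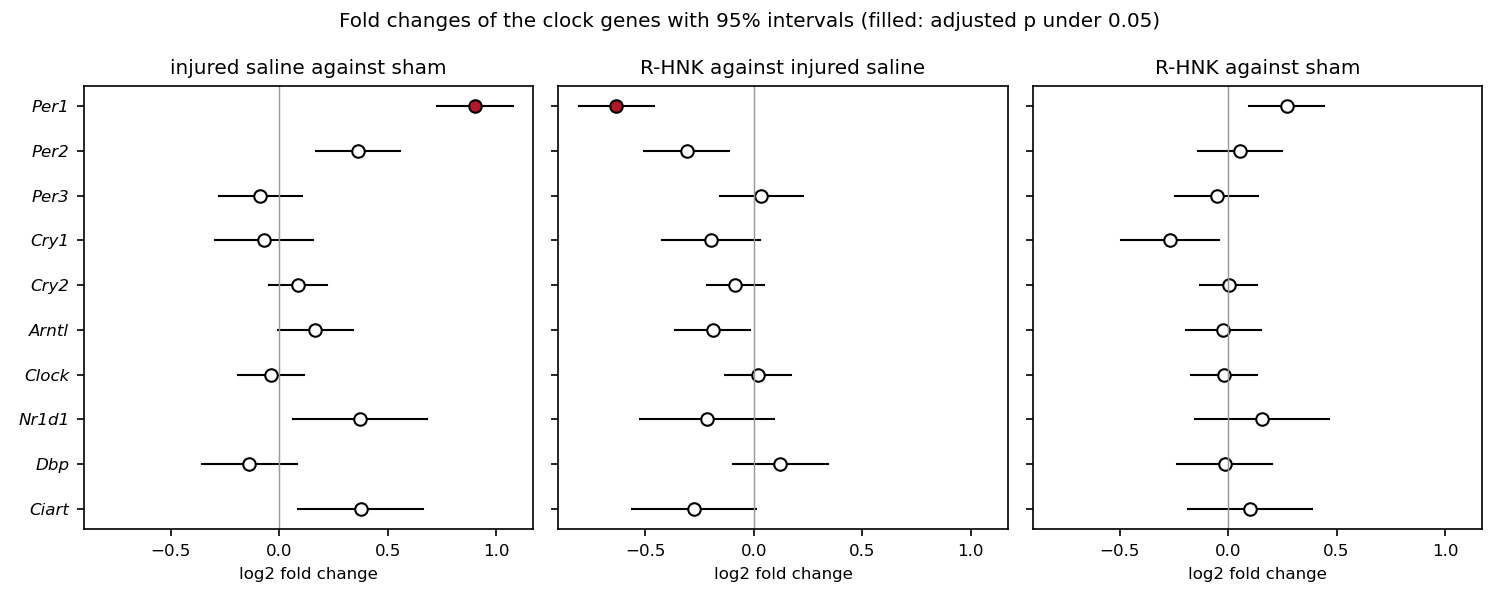
Log2 fold change of each clock gene (horizontal axis) in the 3 comparisons, with 95% intervals for each gene alone. Filled points passed at an adjusted p under 0.05 over all genes: Per1 is filled at 0.90 in injured saline against sham mice and at -0.63 in R-HNK against injured saline mice, and no other point is filled.

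Set side by side, 1 of the 10 clock genes, Per1, rose in injured saline against sham mice and 9 did not pass, where 0.515% of all genes tested were called higher and 1.07% were called in either direction. The median log2 fold change of the 10 was 0.13, against -0.02 over all tested genes, and 6 of the 10 values were positive. In R-HNK against injured saline mice Per1 fell and 9 did not pass, where 0.0827% of all genes were called lower, 0.0368% higher and 0.119% in either direction. The median of the 10 was -0.19, against 0.01 over all genes. In R-HNK against sham mice none of the 10 passed in edgeR, DESeq2 or limma-voom, and 0.00459% of all genes were called in edgeR. An unadjusted p under 0.05 was found there for 2 of the 10 (Per1 and Cry1), against 3.53% of all genes. In the first 2 comparisons it was found for 4 and 3 of the 10, against 16.6% and 7.47% of all genes. In the test for any difference among the 3 groups Per1 passed (edgeR adjusted p = 0.000525) and the other 9 did not, where 0.381% of genes were called. Groups without overlap were found for Per1, Per2 and Arntl in each of the first 2 comparisons, where 21.7% and 13.7% of all genes showed this, and for Per1 and Cry1 in R-HNK against sham mice, where 8.85% did. The comparisons share libraries, so the values of 1 gene in them are not independent.

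The period genes did not move as a block. The ratio of Per1 to Per3 counts, which depends on no scaling between libraries, was 1.70, 1.58 and 1.68 in R-HNK mice, 2.38, 2.52 and 3.04 in injured saline mice and 1.23, 1.30 and 1.46 in sham mice. The 3 groups did not overlap in this ratio. The ratio of Per1 to Per2 was 1.98, 1.74 and 2.02 in R-HNK mice, 2.08, 2.39 and 2.77 in injured saline mice and 1.53, 1.59 and 1.87 in sham mice, so that injured saline mice were again above all others and R-HNK and sham mice overlapped. Of all 45 pairs of clock genes, the ratio separated injured saline from sham mice in 18 and R-HNK from injured saline mice in 19. Each of these counts included all 9 pairs with Per1, which share the Per1 counts and are not independent. Of the 36 pairs without Per1 the ratio separated the groups in 9 and 10. The share over pairs of all tested genes was not worked out, so these counts have no background beside them. All 3 groups were apart in 6 pairs, 4 with Per1 (over Per3, Cry1, Cry2 and Clock) and 2 without it (Per2 over Per3 and Dbp over Ciart). The ratio of Per2 to Per3 was 0.857, 0.908 and 0.833 in R-HNK mice, 1.14, 1.06 and 1.10 in injured saline mice and 0.807, 0.818 and 0.781 in sham mice, so Per2 stood apart from Per3 in the same order as Per1. Per2 did not stand apart from every clock gene: over Cry1, Arntl, Nr1d1 and Ciart its ratio overlapped in every comparison. Per2 over Cry2 and over Dbp separated injured saline mice from both other groups, and Per2 over Clock only from R-HNK mice. The ratios of Dbp to Per3 and of Nr1d1 to Arntl overlapped in every comparison. That of Dbp to Per3 was 1.28, 1.28 and 1.17 in R-HNK mice, 1.00, 1.27 and 1.25 in injured saline mice and 0.989, 1.26 and 1.44 in sham mice. That of Nr1d1 to Arntl, a target and an activator of the loop, was 3.40, 2.88 and 2.82 in R-HNK mice, 2.62, 3.58 and 3.06 in injured saline mice and 2.86, 2.14 and 3.05 in sham mice. With 3 libraries against 3 an exact permutation test cannot go below 0.1, so the ratios were not tested.

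**Figure D3:**
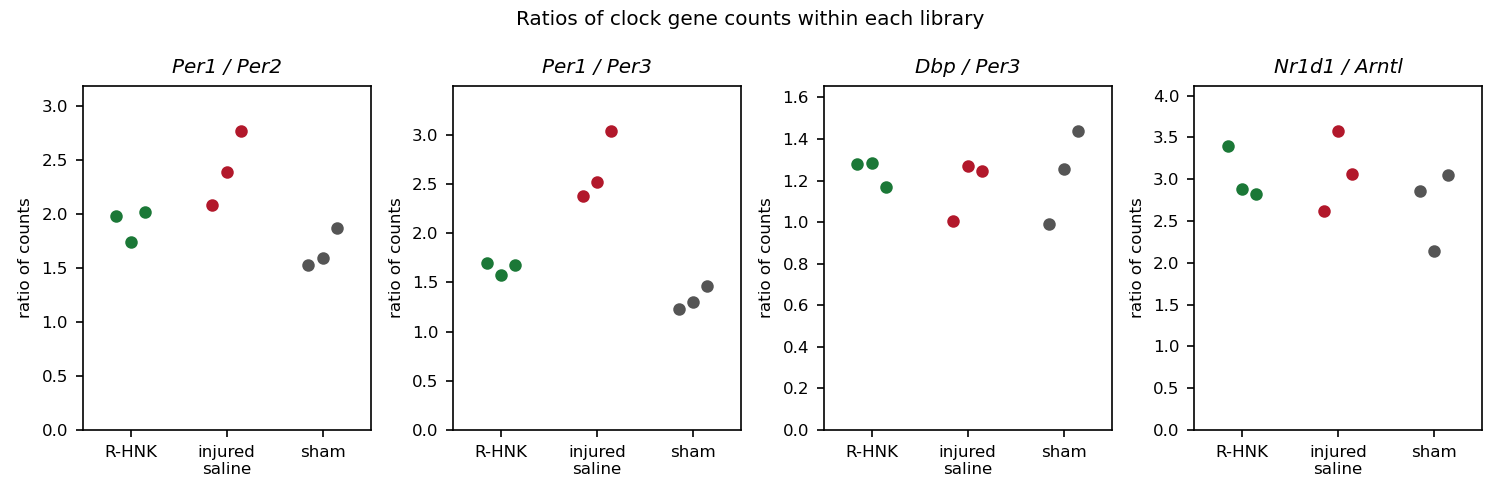
Ratios of counts within each library (vertical axes, from 0) for 4 pairs of clock genes in R-HNK, injured saline and sham mice. Points are libraries. Per1 over Per3 runs from 2.38 to 3.04 in injured saline mice, above all other libraries, while Dbp over Per3 and Nr1d1 over Arntl overlap between groups.

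Averaged over all 3 period genes, the mean deviation from the 9-library level was 0.01, -0.15 and -0.07 on the log2 CPM scale in R-HNK mice, 0.24, 0.28 and 0.17 in injured saline mice and -0.03, -0.22 and -0.24 in sham mice. For the other 7 clock genes it was 0.00, -0.03 and -0.09 in R-HNK mice, 0.00, 0.11 and 0.11 in injured saline mice and -0.03, -0.08 and 0.01 in sham mice. Period genes minus the others gave 0.00, -0.12 and 0.02 in R-HNK mice, 0.24, 0.17 and 0.06 in injured saline mice and 0.01, -0.14 and -0.25 in sham mice. The injured saline libraries were the 3 highest in this difference. For Per1 alone minus the other 7 the values were larger, at -0.02, -0.24 and 0.00 in R-HNK mice, 0.41, 0.43 and 0.48 in injured saline mice and -0.30, -0.40 and -0.38 in sham mice.

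Of 24 further clock genes none passed in the edgeR fit of all 9 libraries in any comparison. They comprise loop partners such as Npas2 and Nr1d2, the output factors Tef and Hlf with their antagonist Nfil3, kinases and ubiquitin ligases that act on PER and CRY, and clock-controlled genes. In injured saline against sham mice 7 had an unadjusted p under 0.05, where 16.6% of all genes did, and the median was 0.04, 13 of 24 being positive. The smallest p belonged to Bhlhe40, which encodes a repressor that binds E-boxes and is also induced by activity: it measured 129, 129 and 88.8 CPM in R-HNK mice, 175, 196 and 186 CPM in injured saline mice and 129, 73.8 and 82.8 CPM in sham mice. The injured saline libraries were the highest, and sham replicate 1 was level with R-HNK replicates 1 and 2. Its log2 fold change of 0.96 ± 0.23 had an edgeR adjusted p of 0.102, and it passed in DESeq2, in limma-voom and without sham replicate 1. It was 0.53 without the 4 libraries raised in striatal markers. Usp2, a deubiquitinase under clock control, was lower in all 3 injured saline libraries (59.2 to 62.5 CPM) than in R-HNK (68.0 to 73.5 CPM) and sham libraries (66.1 to 73.5 CPM), with log2 fold changes of -0.22 ± 0.07 against sham and 0.21 ± 0.07 for R-HNK against injured saline mice (edgeR adjusted p = 0.143 and 0.518), and passed the first in limma-voom. Without the 4 libraries the first was -0.11. Nfil3, the repressor that competes with DBP, gave 0.39 ± 0.13 and -0.31 ± 0.13 in the same comparisons (adjusted p = 0.157 and 0.626).

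In R-HNK against injured saline mice 3 of the 24 had an unadjusted p under 0.05 (7.47% of all genes) and the median was -0.04, and in R-HNK against sham mice 0 had (3.53% of all genes), with a median of -0.01. No member of this list passed in DESeq2 or limma-voom in either. Tef, a relative of Dbp, was steady, with log2 fold changes of 0.03 ± 0.06 in R-HNK against injured saline mice and -0.03 ± 0.06 in injured saline against sham mice. Nr1d2, the paralog of Nr1d1, gave -0.04 ± 0.08 and 0.05 ± 0.08.

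Genes that neuronal activity induces were set beside Per1. Of 17 such genes 12 rose in injured saline against sham mice (median 1.08), where 0.515% of all genes were called higher. In R-HNK against injured saline mice 5 fell (median -0.63), where 0.0827% of all genes were called lower. None passed in R-HNK against sham mice in edgeR (median 0.39), where 11 had an unadjusted p under 0.05, against 3.53% of all genes. There 3 passed in DESeq2 and 0 in limma-voom. The 12 were Dusp6, Egr4, Nr4a3, Egr2, Nr4a1, Egr1, Fosb, Ier2, Fos, Sik1, Arc and Dusp1, and the 5 were Dusp6, Egr4, Nr4a3, Egr1 and Nr4a1. Junb, Bdnf, Crem, Npas4 and Nr4a2 passed neither comparison in the edgeR fit of all 9 libraries. Npas4 averaged 69.8 CPM in R-HNK mice, 67.6 CPM in injured saline mice and 58.3 CPM in sham mice, and Npas4 and Nr4a2 overlapped between all groups. Over the 18 other settings 9 to 15 members were called higher in the first comparison and 1 to 11 lower in the second. The count of 5 was 1 without injured saline replicate 2, injured saline replicate 3 or R-HNK replicate 1 and 3 without injured saline replicate 1, and 11 without sham replicate 3. With the 4 striatal-marked libraries left out the counts were 13 and 8, and 3 genes (Fos, Junb and Egr2) passed as higher in R-HNK against sham mice, where 1 (Junb) passed without sham replicate 3. The excitatory cortical markers, given above, moved in the same directions as these genes, and their part was not tested. Egr4, an early growth response factor, had log2 fold changes of 1.01 ± 0.09 and -0.62 ± 0.08 in these comparisons (edgeR adjusted p = 0.000205 and 0.0134), and Per1 had 0.90 and -0.63. Without the 4 libraries the second Egr4 value was -0.56 and did not pass (adjusted p = 0.0696).

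The 5 genes whose pattern over the 9 libraries was closest to that of Per1 were Nab2, Midn, Sertad1, Dusp6 and Spry4. They were picked among 10520 genes whose mean log2 CPM reached 3, after provisional symbols such as Gm numbers and Rik names were left out. Their root mean square differences were 0.10 to 0.13 on the log2 CPM scale, against 0.39 for the deviation of Per1 itself. Nab2 encodes a corepressor of the Egr factors, and Dusp6 and Spry4 inhibitors of ERK signalling. No clock gene was among them. All 5 passed in injured saline against sham mice (log2 fold changes 0.68 to 1.08) and in R-HNK against injured saline mice (-0.84 to -0.53), and none in R-HNK against sham mice. They were picked for likeness to Per1, so these calls describe the choice.

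**Figure D4:**
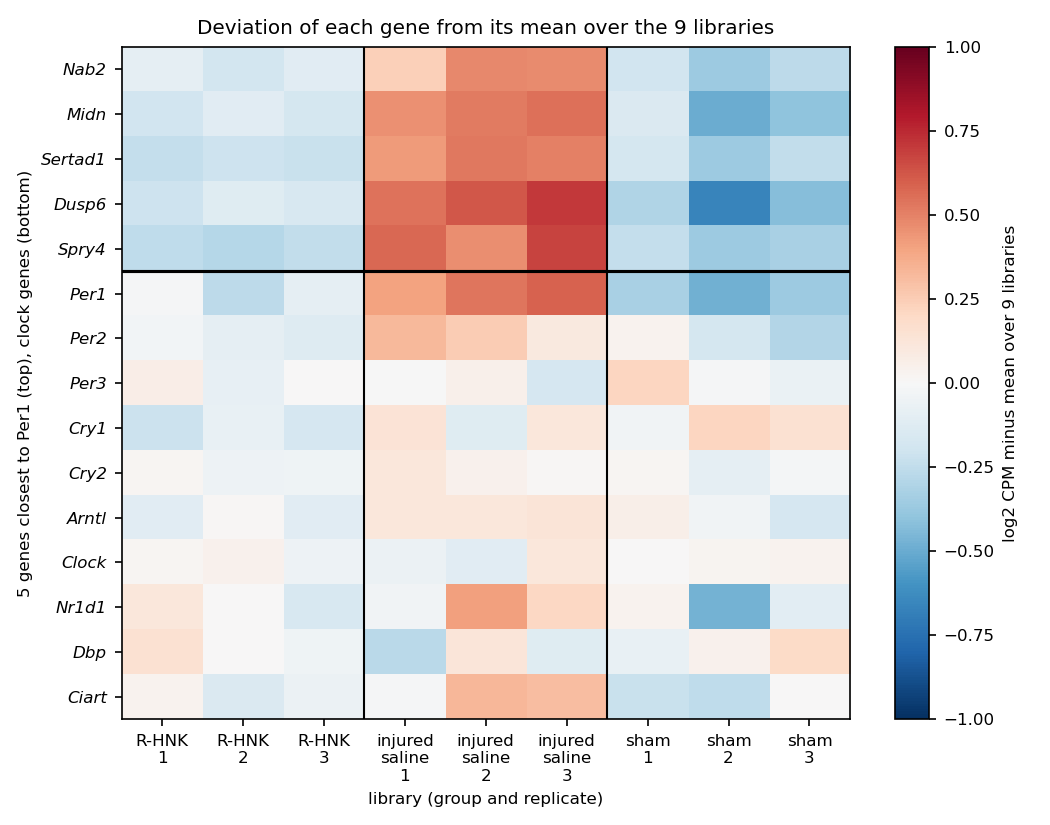
Log2 CPM minus the mean over the 9 libraries (colour, red above and blue below the mean) for the 5 genes closest to Per1 (top rows) and the 10 clock genes (bottom rows), in R-HNK, injured saline and sham libraries. Per1 runs from -0.48 in sham replicate 2 to 0.59 in injured saline replicate 3, like the rows above it, while Clock stays between -0.11 and 0.11.

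Glucocorticoids also induce Per1, and 15 glucocorticoid-responsive genes were read in the same fits. None passed in the edgeR fit of all 9 libraries in any comparison. In injured saline against sham mice 11 of 15 log2 fold changes were positive (median 0.27) and 8 had an unadjusted p under 0.05, against 16.6% of all genes tested, with 3 passing in DESeq2 and 2 in limma-voom. Tsc22d3, which encodes the leucine zipper protein GILZ, measured 43.1, 58.1 and 45.9 CPM in R-HNK mice, 62.9, 67.3 and 64.0 CPM in injured saline mice and 40.5, 52.3 and 44.0 CPM in sham mice. Injured saline libraries were the highest in Tsc22d3, at log2 fold changes of 0.50 ± 0.11 against sham (edgeR adjusted p = 0.0567) and -0.40 ± 0.11 for R-HNK against injured saline mice (adjusted p = 0.387). The first passed in 7 of 18 other settings, 5 of them edgeR fits, and was 0.68 without the 4 libraries raised in striatal markers (adjusted p = 0.0187), where the second was -0.16. Sgk1, a kinase gene of the same response, gave 0.42 ± 0.11 and -0.31 ± 0.11 (adjusted p = 0.0881 and 0.571), with the second at -0.18 without the 4 libraries. Zbtb16 and Klf9, transcription factor genes, gave 0.49 and 0.32 in injured saline against sham mice (adjusted p = 0.159 and 0.199). Zbtb16 passed in 3 of 18 other settings, among them without sham replicate 1 (0.69, adjusted p = 0.00776), and was 0.17 without the 4 libraries. Klf9 was 0.19 with the striatal covariate. Other members did not rise: Fkbp5 averaged 25.3 CPM in injured saline and 26.4 CPM in sham mice, and Mt1 143.3 and 142.5 CPM. The means of Mt2 (57.4 and 62.8 CPM), Hif3a (5.14 and 5.80 CPM) and Pdk4 (7.60 and 9.43 CPM) were lower in injured saline than in sham mice. In R-HNK against injured saline mice 4 of 15 had an unadjusted p under 0.05 (7.47% of all genes) and in R-HNK against sham mice 2 (3.53% of all genes). None passed in DESeq2 or limma-voom in these 2 comparisons. The part of either gene list in the Per1 values was not tested.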

How the data were processed

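Bulk RNA of the prelimbic cortex was sequenced in 9 mice, 3 per group. Per the labels, TRIzol and a column kit were used, and libraries were run on an Illumina NovaSeq. HISAT2 2.0.5, featureCounts 1.5.0-p3 and mm10 are named in the submitters' processing notes, while StringTie stands in the table's own name. Values deposited by the authors are expected counts (estimated counts of reads), which are whole numbers without normalization, and strand and pair settings are not given in the sources used here.

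After filterByExpr (by group) 21765 genes remained, holding 99.96% of counts. They were scaled with TMM, at factors of 0.979 to 1.03, and fitted in R 4.3.3 with edgeR 4.0.16 (robust quasi-likelihood, all 9 libraries, 1 mean per group). Adjustment ran over all tested genes, with a threshold of 0.05. SE and 95% intervals were worked back from the test statistic and are not adjusted. Log2 CPM used a prior count of 2. Exon lengths and positions are from GENCODE M21. DESeq2 1.42.0 and limma 3.58.1 (voom with quality weights) were alternatives. The analysis was tested on simulated counts, with changes planted in genes outside the lists. Over the 3 comparisons 46.8% to 51.2% of 1.5-fold changes and 77.6% to 81.1% of 2-fold changes were recovered, and 6.88% to 9.04% of the calls were false. A gene that did not pass is therefore not shown to be unchanged. Alternatives were other scaling, no filter, a replicate block, the compared groups alone, each library left out, a striatal marker covariate, and no libraries raised in striatal markers.

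The clock genes, gene lists, tests and other settings were chosen with earlier results of these data known. By rule, the genes named were the 10 clock genes, list members that passed or had 1 of the 4 smallest p in a comparison, and the 5 genes nearest to Per1, Dbp and Arntl. Others were added after their values were seen: Tef and Nr1d2, named as relatives of Dbp and Nr1d1, the tissue markers, and some list members that did not pass. The last are Junb, Bdnf, Crem, Npas4, Nr4a2, Fkbp5, Mt1, Mt2, Hif3a and Pdk4. The values of 1 gene that this rule names are not reported here.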

Additional observations from a re-analysis of the deposited data

How the results depend on the processing

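The number of clock genes called in injured saline against sham mice was 1 (Per1) and became 2 (Per1 and Per2) without a filter, in DESeq2 and in limma-voom, and ran from 1 to 2 when 1 library was left out, the 2 being without sham replicate 1. In R-HNK against injured saline mice it was 1 and ran from 0 to 1, the 0 being without injured saline replicate 2 or 3. In R-HNK against sham mice it was 0 in all 18 other settings. In the test for any difference among the 3 groups it was 1, was 2 in DESeq2 and ran from 1 to 2 when 1 library was left out. When the 4 libraries with raised striatal markers were left out, 16 of 118 differences of the genes named by rule changed sign, 7 of them of clock genes. None of the 16 had passed in the fit of all 9 libraries. In 3 of the 16 the difference had been larger than its SE: Nr1d1 in R-HNK against sham mice, to -0.0305, Zbtb16 in the same comparison, to -0.20, and Hlf in R-HNK against injured saline mice, to 0.0243. The causes were not tested. The number of all genes called moved more: 233 in injured saline against sham mice (60 to 1170 over the settings), 26 in R-HNK against injured saline mice (7 to 136), 1 in R-HNK against sham mice (0 to 25) and 83 in the 3-group test (21 to 637). Deviations from the group means of same-numbered libraries correlated at -0.10 to 0.09. Sham replicate 1 correlated best with R-HNK replicate 2 (0.18), and both are without raised striatal markers. Since the other libraries of these groups are raised in them, the correlations cannot decide whether replicate numbers pair the libraries. With the replicate block the clock genes called were 1, 1, 0 and 1 in the 4 tests, and the genes called over all were 162, 16, 2 and 43. Other scaling moved the median of all genes by less than 0.1 on the log2 scale.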

Other observations

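Markers of the suprachiasmatic nucleus, the hypothalamic seat of the master clock, were read as a check that the clock genes here come from other cells. Of 7 markers 4 (Avp, Six6, Lhx1 and Nms) had too few counts to be tested, and Six6 was at 0 in all R-HNK and injured saline libraries. Prok2, a secreted signal of that nucleus, measured 0.193 ± 0.167 CPM in R-HNK mice, 0.0585 ± 0.0549 CPM in injured saline mice and 0.435 ± 0.170 CPM in sham mice (SD, n = 3 each). Vip, which cortical interneurons also make, was between 23.0 and 35.0 CPM in all 9 libraries. Rgs16, a regulator of G protein signalling on the same list, measured 8.25, 8.02 and 8.60 CPM in R-HNK mice, 9.60, 9.61 and 10.4 CPM in injured saline mice and 6.85, 7.09 and 6.73 CPM in sham mice. The 3 groups did not overlap in Rgs16, in the same order as for Per1. Its log2 fold changes were 0.52 ± 0.12 in injured saline against sham mice (edgeR adjusted p = 0.0521), -0.25 ± 0.12 in R-HNK against injured saline mice (adjusted p = 0.655) and 0.27 ± 0.12 in R-HNK against sham mice (adjusted p = 1.00).

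The genes nearest in pattern to Dbp and Arntl were picked in the same way as those nearest to Per1. Closest to Dbp were Ints2, Rrp1b, Gpc4, Brpf3 and Kdm4b, at root mean square differences of 0.05 to 0.07 on the log2 CPM scale, against 0.14 for the deviation of Dbp itself. Closest to Arntl were Rab6b, Ergic1, Atp2a2, Iqsec1 and Leo1, at 0.03 to 0.04, against 0.11 for Arntl. None of these 10 genes passed in any comparison in edgeR. They were picked for likeness to genes that did not pass, so this describes the choice.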
